A study of Mus musculus with 6 samples.

Results

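Described here are 9 of 26554 measured features, the genes of the classical complement arm and of C3 that were chosen by symbol: the C1q chains C1qa, C1qb and C1qc, the proteases C1ra and C1s1, the C1 inhibitor Serping1, the components C4b and C3, and the C3a receptor C3ar1. Each symbol matched a single row of every table.

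The complement system is a cascade of plasma and tissue proteins that marks targets for uptake by phagocytes. In its classical arm C1q binds a target, the attached proteases C1r and C1s cleave C4 and C2, and the enzyme formed by their fragments cleaves C3. In the brain C1q comes mainly from microglia, C4 and C3 are made by glia and macrophages, and fragments of C3 deposited on synapses and debris are read by receptors on microglia.

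RNA came from the ventral posterolateral and posteromedial nuclei (VPL/VPM), the body and face relay of the thalamus, of mice used to model pain that follows a stroke. The collagenase group (3 libraries) was made from wild-type C57 mice that received 10 nL with 0.01 U of type IV collagenase, a protease that damages vessel walls and causes a small bleed, in the right VPL/VPM. The saline group (3 libraries) was made from wild-type C57 mice given 10 nL of saline at the same site. Tissue was taken at day 14 in both groups. The labels give neither age nor sex and do not say whether animals were pooled, so p-values measure the spread between these libraries.

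Total counts per library ranged from 33603076 to 44815451. Replicates of a group differed by far more than counting noise, and none was a duplicate of another. Relay neuron markers were present in every library, with Slc17a6, the glutamate transporter of relay neurons, at 433 to 572 CPM (read counts scaled to a common library size with edgeR's TMM factors) in collagenase libraries and 399.9 to 632 CPM in saline libraries. Neighbouring tissue differed between libraries of both groups. The summed CPM of 8 choroid plexus and ependyma markers was 1834, 1980.4 and 55.2 in collagenase replicates 1, 2 and 3. In saline replicates 1, 2 and 3 it was 942, 2589 and 57.3. Where the sum was high, most of it was Ttr. Without Ttr the sums were 45.0 to 164 CPM in collagenase libraries and 44.4 to 207 CPM in saline libraries. Saline replicate 3 also held the most striatal RNA, at 891 CPM over 8 markers, against 126 to 292 CPM in the collagenase libraries and 140.1 to 149 CPM in the other saline libraries. After collagenase the sum of 8 hippocampal and cortical markers was 160 to 192 CPM, against 195 to 240 CPM after saline. For 8 inhibitory and reticular nucleus markers it was 622 to 820 CPM against 888 to 1177 CPM. Neither of these sums overlapped between the groups. Over 6 habenular markers the sums overlapped, at 50.9 to 150 CPM against 21.1 to 117 CPM. The part of tissue content in the group differences was not tested. In tissue RNA, more cells of a type and more RNA per cell cannot be told apart.

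All 9 genes were higher after collagenase, and for each of them the lowest collagenase library lay above the highest saline library. Each passed the quasi-likelihood test of edgeR with a p below 0.05 after Benjamini-Hochberg adjustment, where 2.12% of the 17240 tested genes passed as higher and 2.41% in either direction; groups that did not overlap, with collagenase on top, were found for 10.1% of tested genes. The median log2 fold change of the 9 genes was 2.03, against -0.02 over all tested genes. By fitted fold, C3 rose 44.9-fold, C3ar1 6.63-fold, and the other 7 genes between 3.24-fold (Serping1) and 4.93-fold (C4b). When 1 library was left out, 7 or 8 of the 9 still passed, and the genes that dropped out were C1ra and C1s1. The genes were picked with earlier results of these data known, so the count of 9 describes them and is no independent test of the pathway.

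**Figure D1:**
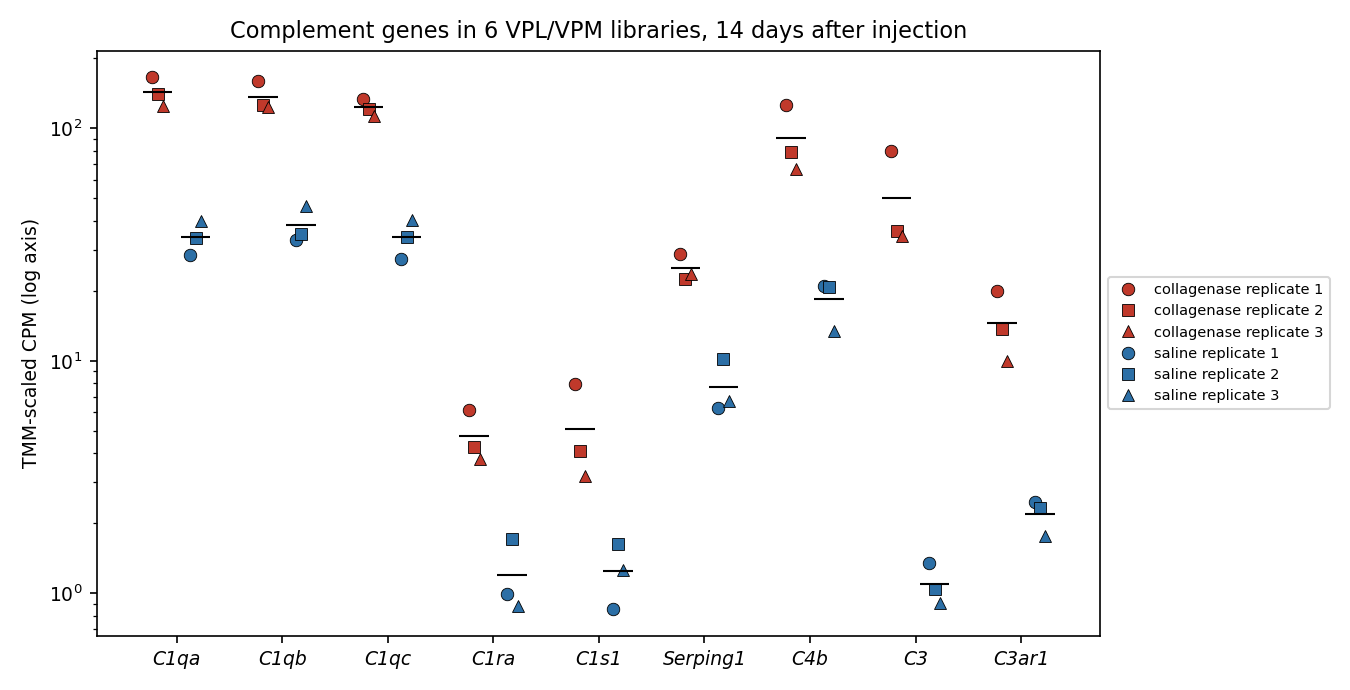
Level of the 9 genes in each library, as TMM-scaled CPM on a log axis. Symbols mark the replicate number, red the collagenase and blue the saline libraries, and lines the group means. For every gene the 3 collagenase points lie above the 3 saline points, and collagenase replicate 1 is the highest.

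The C1q chains are joined in one recognition molecule, and their genes lie side by side on the minus strand of chromosome 4 (GRCm38): C1qb at chr4:136880129-136886187, C1qc at chr4:136889804-136893065 and C1qa at chr4:136895917-136898803, a stretch of 18675 bases in all. Per transcript length they were the most abundant of the 9 genes in both groups. C1qa measured 165, 139.7 and 124 CPM in collagenase replicates 1, 2 and 3, against 28.5, 33.7 and 40.1 CPM in saline replicates 1, 2 and 3. Its log2 fold change was 2.07 with a standard error (SE) of 0.16 and an edgeR adjusted p of 0.00116. The 3 saline values lay within 1.41-fold of each other and the lowest collagenase value was 3.10-fold above the highest of them.

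C1qb measured 159, 125 and 123 CPM in collagenase replicates 1, 2 and 3, against 33.1, 35.3 and 46.5 CPM in saline replicates 1, 2 and 3 (log2 fold change 1.83, SE 0.16, edgeR adjusted p 0.0019). C1qc measured 134, 121 and 113 CPM in collagenase replicates 1, 2 and 3, against 27.4, 34.0 and 40.3 CPM in saline replicates 1, 2 and 3 (log2 fold change 1.86, SE 0.15, edgeR adjusted p 0.00141). Collagenase replicate 1 was highest for each chain and saline replicate 1 lowest. Among the 9 genes these 3 had the most similar profiles: their log2 CPM, centred on the mean of each gene over the 6 libraries, differed by a root mean square of 0.09 (C1qb and C1qc) to 0.14 (C1qa and C1qb).

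The C1qb and C1qc promoters are shown because their genes had the closest profiles of all pairs among the 9. They are the 250 bases before the RefSeq start (GRCm38.p6), written 5′ to 3′, with a match to the searched motif in capitals. RefSeq promoters were at hand for 6 of the 9 genes, and C1qa, C4b and Serping1 are named only.
C1qb promoter, chr4:136886201-136886450, minus strand: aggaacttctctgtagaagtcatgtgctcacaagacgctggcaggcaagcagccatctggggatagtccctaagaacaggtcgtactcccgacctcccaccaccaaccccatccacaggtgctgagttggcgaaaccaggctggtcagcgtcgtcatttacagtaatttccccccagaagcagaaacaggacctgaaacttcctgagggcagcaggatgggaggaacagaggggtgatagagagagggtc
C1qc promoter, chr4:136892915-136893164, minus strand: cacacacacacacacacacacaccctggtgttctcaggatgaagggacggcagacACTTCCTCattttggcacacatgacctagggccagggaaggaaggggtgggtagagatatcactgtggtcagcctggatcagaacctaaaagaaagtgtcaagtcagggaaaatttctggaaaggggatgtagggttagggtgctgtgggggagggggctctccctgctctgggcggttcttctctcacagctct
Both strands were searched for PU.1 (GAGGAAGT), C/EBP (TTGCNNAA), STAT (TTCNNNGAA), the interferon response element, NF-kB and the TATA box (TATAAA). The capitals in C1qc are a PU.1 word read on the opposite strand, 195 bases before the RefSeq start. Of 27025 genes 2.79% hold one in the same window. GENCODE places the start of C1qc inside its window, at chr4:136893065, so the distance depends on the annotation. No searched word occurs in the C1qb window.

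The ratios between the chains were compared within each library. There were 0.962, 0.897 and 0.989 C1qb counts per C1qa count in collagenase replicates 1, 2 and 3, against 1.16, 1.05 and 1.16 in saline replicates 1, 2 and 3. For C1qc the ratio was 0.810, 0.865 and 0.912 in collagenase replicates 1, 2 and 3, against 0.961, 1.01 and 1.01 in saline replicates 1, 2 and 3. Both ratios were lower in every collagenase library, with log2 differences of -0.24 (SE 0.06) and -0.20 (SE 0.05). The exact two-sided permutation test gave p = 0.1 for each, which is the smallest p that 3 against 3 libraries allow, and an adjusted p of 0.143 over the 10 ratios compared; no ratio could therefore pass.

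C1qa was also set against markers of microglia, the cells that make it. Of 12 genes of resting microglia 6 rose, among them Fcrls, Aif1, Csf1r, Olfml3 and Cx3cr1, and 6 did not pass, and their summed level was 545 to 729 CPM in collagenase libraries against 334 to 364 CPM in saline libraries. P2ry12, which senses purines released by damaged cells, measured 34.9, 34.3 and 35.0 CPM in collagenase replicates 1, 2 and 3, against 26.4, 25.3 and 41.2 CPM in saline replicates 1, 2 and 3, and did not pass (edgeR adjusted p 0.809). Without saline replicate 3 it passed, with a log2 fold change of 0.43 and an edgeR adjusted p of 0.0352. C1qa relative to the summed list was 0.227, 0.224 and 0.228 in collagenase replicates 1, 2 and 3, against 0.0853, 0.0986 and 0.110 in saline replicates 1, 2 and 3. The ratio was thus nearly equal in the 3 collagenase libraries and 2.32-fold higher than in saline (log2 difference 1.21, SE 0.11), with the smallest possible exact permutation p of 0.1.

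**Figure D2:**
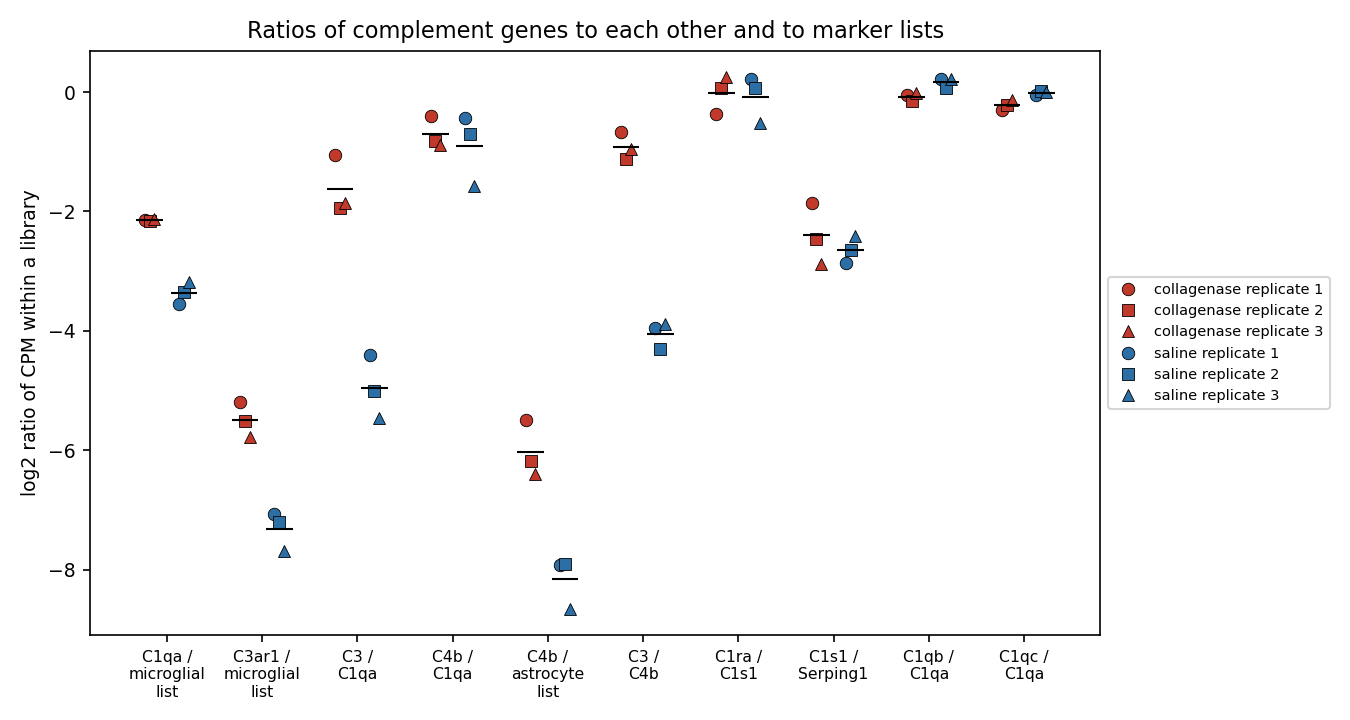
Ratios of CPM within a library, on a log2 axis, between complement genes and from complement genes to the summed microglial (12 genes) or astrocyte identity (12 genes) list. Red points are collagenase and blue points saline libraries, lines are group means. C1qa and C3ar1 per microglial list and C3 per C1qa or C4b are separated by group, while C4b per C1qa, C1ra per C1s1 and C1s1 per Serping1 overlap.

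The proteases C1r and C1s sit in the C1 complex and are each encoded in mice by a gene with a close copy. C1ra (chr6:124512405-124523443, plus strand) and C1s1 (chr6:124530345-124542359, minus strand) face each other tail to tail, 6901 bases apart. They were among the genes with the lowest levels. C1ra had 293, 159 and 146 counts in collagenase replicates 1, 2 and 3, against 44, 59 and 30 counts in saline replicates 1, 2 and 3. In CPM this was 6.15, 4.27 and 3.78 after collagenase, against 0.991, 1.72 and 0.880 after saline, a log2 fold change of 1.99 (SE 0.33, edgeR adjusted p 0.0209). C1s1 measured 7.94, 4.09 and 3.19 CPM in collagenase replicates 1, 2 and 3, against 0.856, 1.63 and 1.26 CPM in saline replicates 1, 2 and 3, a log2 fold change of 2.03 (SE 0.40, edgeR adjusted p 0.0395). Collagenase replicate 1 stood apart for C1s1, 2.49-fold above replicate 3.

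Both calls were fragile. With 1 library left out, C1ra passed in 2 of 6 fits, with an edgeR adjusted p of 0.0142 to 0.125. C1s1 passed in 0 of 6, with an edgeR adjusted p of 0.051 to 0.188. The log2 fold changes of both stayed between 1.55 and 2.33 in these fits. DESeq2 called both with all libraries. The copies C1rb and C1s2 had too few counts to be tested: C1rb had 43 counts over the collagenase libraries against 8 over the saline libraries, and C1s2 had 27 against 18. Of the 50-base words in C1ra transcripts 48.0% also occur in C1rb, and 21.8% of those in C1s1 occur in C1s2, so the split of reads within each pair is uncertain. The annotated antisense gene Gm16567, which shares 576 exon bases with C1s1, is not listed in the tables, and without strand information its reads cannot be told from those of C1s1.

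Serping1 (chr2:84765387-84775444, minus strand) encodes the C1 inhibitor, a serpin that binds and removes C1r and C1s. It measured 28.9, 22.4 and 23.5 CPM in collagenase replicates 1, 2 and 3, against 6.24, 10.2 and 6.69 CPM in saline replicates 1, 2 and 3. The log2 fold change of 1.70 (SE 0.21, edgeR adjusted p 0.00688) was the smallest of the 9 genes. Its collagenase libraries were close together, with a coefficient of variation of 13.8%, against 49.8% for C1s1. Protease and inhibitor were compared as a ratio: C1s1 per Serping1 was 0.275, 0.182 and 0.135 in collagenase replicates 1, 2 and 3, against 0.137, 0.160 and 0.189 in saline replicates 1, 2 and 3. These ratios overlapped (log2 difference 0.24, SE 0.32, exact permutation p = 0.7), as did C1ra per C1s1 (0.06, SE 0.29, exact permutation p = 0.7). The intervals are wide, so equal change is not shown.

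Among saline libraries, C1ra, C1s1 and Serping1 were each highest in replicate 2. That library also had the highest sums of the saline group for fibroblast and meningeal markers (278 CPM over 8 genes, against 142 to 171 CPM in the other saline libraries) and for choroid plexus markers. The fibroblast sum was 306 to 385 CPM in collagenase libraries, and 4 of its 8 genes rose (Col1a1, Dcn, Col3a1 and Col1a2). The part of these cells in the rise of C1ra, C1s1 and Serping1 was not tested. With both choroid-poor libraries left out, collagenase replicate 3 and saline replicate 3, the log2 fold changes were 1.97, 2.30 and 1.66 for C1ra, C1s1 and Serping1 and all of them passed in edgeR (adjusted p 0.0204, 0.0372 and 0.0311).

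C4b (chr17:34728380-34743882, minus strand) encodes the C4 that C1s cleaves, and its fragment binds covalently to targets. It measured 126, 79.1 and 67.0 CPM in collagenase replicates 1, 2 and 3, against 21.0, 20.8 and 13.4 CPM in saline replicates 1, 2 and 3. The log2 fold change was 2.30 (SE 0.28, edgeR adjusted p 0.00807), and the lowest collagenase library was 3.19-fold above the highest saline library. C4b was set against C1qa as well: the ratio of their CPM was 0.761, 0.566 and 0.539 in collagenase replicates 1, 2 and 3, against 0.737, 0.617 and 0.335 in saline replicates 1, 2 and 3, with overlapping groups (log2 difference 0.20, SE 0.38, exact permutation p = 0.8). Of the 50-base words in C4b transcripts 34.6% also occur in those of its copy C4a, which is not listed in the tables, so reads of C4a could have been counted as C4b.

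C4 is known from astrocytes as well as microglia. The summed level of 12 astrocyte identity genes was 5638 to 5762 CPM in collagenase libraries against 4965 to 5412 CPM in saline libraries, and 1 of the 12, Aqp4, rose. C4b relative to that list was 0.0223, 0.0137 and 0.0119 in collagenase replicates 1, 2 and 3, against 0.0041, 0.0042 and 0.0025 in saline replicates 1, 2 and 3, a 4.40-fold difference (log2 2.14, SE 0.37, exact permutation p = 0.1, the smallest possible). Genes of reactive astrocytes moved in the same direction as C4b. Of 10 such genes 8 rose, and their sum was 984 to 1423 CPM in collagenase libraries against 216 to 358 CPM in saline libraries. Which cells the additional C4b RNA came from was not tested.

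C3 (chr17:57203970-57228136, minus strand) is the component on which the classical, lectin and alternative arms converge. It had 3792, 1348 and 1327 counts in collagenase replicates 1, 2 and 3, against 60, 36 and 31 counts in saline replicates 1, 2 and 3. In CPM this was 79.7, 36.2 and 34.4 after collagenase, against 1.35, 1.05 and 0.909 after saline. Replicate 1 was 2.32-fold above replicate 3 within the collagenase group, yet the lowest collagenase library was 25.4-fold above the highest saline library. The log2 fold change was 5.49 (SE 0.42, edgeR adjusted p 0.00219), the 33rd largest of 17240 tested genes. Leaving out 1 library moved it between 4.99 (without collagenase replicate 1) and 5.70 (without collagenase replicate 3), and C3 passed in 6 of 6 such fits. With both choroid-poor libraries left out its log2 fold change was 5.59 with an edgeR adjusted p of 0.0533, so that the call ended. On log2(FPKM + 1), a scale that understates the change of low genes, the difference was 3.05.

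C3 was also set against the components that act before it. C3 per C1qa was 0.481, 0.259 and 0.277 in collagenase replicates 1, 2 and 3, against 0.0474, 0.0311 and 0.0227 in saline replicates 1, 2 and 3, which is 10.1-fold higher. C3 per C4b was 0.632, 0.458 and 0.514 in collagenase replicates 1, 2 and 3, against 0.0644, 0.0504 and 0.0678 in saline replicates 1, 2 and 3, which is 8.78-fold higher. Neither pair of groups overlapped, and the log2 differences of 3.34 (SE 0.42) and 3.13 (SE 0.19) had the smallest exact permutation p the design allows, 0.1. C3 per C4b varied little within a group, with SDs of 0.24 and 0.23 on the log2 scale in collagenase and saline libraries.

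C3ar1 (chr6:122847138-122856161, minus strand) encodes the receptor for C3a, the small fragment released from C3, and is carried by microglia and other myeloid cells. It measured 19.9, 13.7 and 9.98 CPM in collagenase replicates 1, 2 and 3, against 2.48, 2.33 and 1.76 CPM in saline replicates 1, 2 and 3. The log2 fold change was 2.73 (SE 0.28, edgeR adjusted p 0.00325), and every collagenase library was at least 4.03-fold above every saline library. Relative to the summed microglial list it was 0.0273, 0.0220 and 0.0183 in collagenase replicates 1, 2 and 3, against 0.0074, 0.0068 and 0.0048 in saline replicates 1, 2 and 3. This ratio was 3.56-fold higher after collagenase (log2 difference 1.83, SE 0.25, exact permutation p = 0.1, the smallest possible).

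The C3 and C3ar1 promoters are shown because these genes had the largest rises of the 9 and encode the source of C3a and its receptor. The capitals mark matches to the same motifs, over the same 250 bases.
C3 promoter, chr17:57228137-57228386, minus strand: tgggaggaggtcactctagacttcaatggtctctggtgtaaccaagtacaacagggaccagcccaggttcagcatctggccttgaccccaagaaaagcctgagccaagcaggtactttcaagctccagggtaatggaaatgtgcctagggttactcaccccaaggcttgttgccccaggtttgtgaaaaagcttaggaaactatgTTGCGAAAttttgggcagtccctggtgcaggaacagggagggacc
C3ar1 promoter, chr6:122856158-122856407, minus strand: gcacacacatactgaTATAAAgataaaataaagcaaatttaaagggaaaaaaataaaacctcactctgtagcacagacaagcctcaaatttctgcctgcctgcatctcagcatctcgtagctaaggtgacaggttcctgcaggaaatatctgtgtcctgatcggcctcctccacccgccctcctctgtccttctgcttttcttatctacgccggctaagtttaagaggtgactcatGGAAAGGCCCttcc
The C3 window holds a C/EBP word 45 bases before the start, as do the windows of 10.8% of genes. The C3ar1 window holds an NF-kB word on the opposite strand 14 bases before the start (1.65% of genes) and a TATA word 235 bases before it (14.3% of genes). These are matches of letters only; binding was not measured.

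Markers of monocytes, macrophages and neutrophils were set beside C3 and C3ar1. The summed level of 10 monocyte and macrophage genes was 204 to 479.6 CPM in collagenase libraries against 19.1 to 25.7 CPM in saline libraries. Most of it was Lyz2, the macrophage lysozyme, which microglia can also express: without Lyz2 the sums were 20.3 to 32.2 CPM against 11.0 to 15.3 CPM. Of the 10 genes Lyz2 and Ccr2 rose and 8 did not pass in edgeR. Among the 8 were Ly6c2, Pf4, Cd163 and Lyve1 with log2 fold changes of 0.04, 0.14, 0.31 and -0.20. Over the 10 genes the median log2 fold change was 0.79, and 9 were positive. An unadjusted p under 0.05 in edgeR was found for 5 of the 10. DESeq2 called 4 of them, Mrc1 and F13a1 besides Lyz2 and Ccr2. None of the 10 was at 0 in all libraries. Neutrophil markers were scarce: their sum over 11 genes was 3.41 to 6.92 CPM in collagenase libraries against 1.17 to 2.01 CPM in saline libraries, and Camp and Elane were at 0 in every library. Of the 11 genes 4 had enough counts to be tested, with a median log2 fold change of 2.03. An unadjusted p under 0.05 in edgeR was found for 3 of them, and DESeq2 called Mmp8 and Mmp9. In edgeR Mmp8 alone passed, with 25, 21 and 13 counts in collagenase replicates 1, 2 and 3 against 0 counts in each saline library. Mmp8 thus entered the test through the collagenase libraries only. The part of monocytes, macrophages and neutrophils in the rise of C3 and C3ar1 was not tested.

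**Figure D3:**
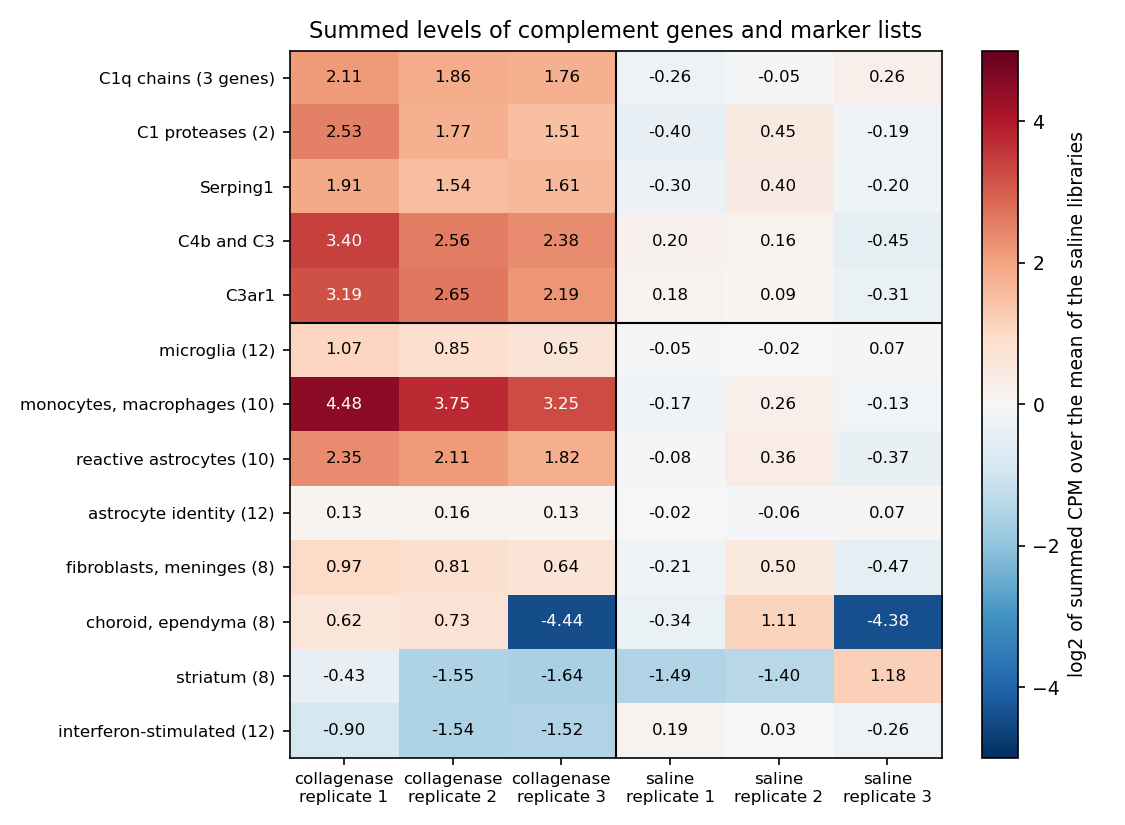
Summed CPM of the complement genes by role (upper 5 rows) and of marker lists (lower rows) in each library, as log2 of the ratio to the mean of the saline libraries, with the number of genes in brackets. The complement rows are between 1.51 and 3.40 in the collagenase libraries; choroid plexus markers are near -4.4 in replicate 3 of both groups, and interferon-stimulated genes are below 0 in the collagenase libraries.

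The order of the genes by mean level differed between the groups, with the largest shift for C3. In FPKM, the authors' length-scaled unit, the saline means ran from C1qb (32.0 ± 4.00), C1qa (29.9 ± 3.68) and C1qc (25.7 ± 3.78) through Serping1 (4.01 ± 1.29) and C4b (3.18 ± 0.890) to C3ar1 (0.466 ± 0.105), C1s1 (0.383 ± 0.123), C1ra (0.368 ± 0.160) and, last, C3 (0.195 ± 0.048), each with its SD and n = 3. Neighbours in that order overlapped except C1qc with Serping1 and C4b with C3ar1, and C1ra and C3 overlapped barely, with a lowest C1ra value of 0.245 FPKM and a highest C3 value of 0.246 FPKM. In collagenase libraries the means were 135 ± 24.7 FPKM for C1qa, 123 ± 23.1 for C1qb, 100.1 ± 12.3 for C1qc, 16.7 ± 6.44 for C4b, 13.8 ± 2.45 for Serping1, 9.67 ± 5.34 for C3, 3.33 ± 1.28 for C3ar1, 1.73 ± 0.926 for C1s1 and 1.56 ± 0.475 for C1ra (SD, n = 3). C3 thus stood sixth after collagenase and ninth after saline. C1qa and C1qb exchanged places, as did Serping1 and C4b. C1qb was above C1qa in every saline library and below it in every collagenase library. In collagenase libraries the ranges of neighbours overlapped too, with exceptions at C1qc and C3. The lowest C1qc value (90.0 FPKM) lay above the highest of C4b (24.0 FPKM). The lowest C3 value (6.39 FPKM) lay above the highest of C3ar1 (4.72 FPKM). Within every collagenase library C1qa was above C1qb, C1qb above C1qc, Serping1 above C3 and C3ar1 above C1s1. The order of C4b and Serping1, and that of C1s1 and C1ra, differed between collagenase libraries and is not resolved.

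Collagenase replicate 1 was the highest collagenase library for 9 of 9 genes. That was also so for 88.5% of the other 357 genes that passed as higher, against 34.6% of all tested genes. Without it the log2 fold change was 1.95 for C1qa, 1.99 for C4b, 2.43 for C3ar1 and 4.99 for C3. The calls of C1ra (1.75, edgeR adjusted p 0.0739) and C1s1 (1.55, edgeR adjusted p 0.107) ended. Both calls also ended without collagenase replicate 2 (edgeR adjusted p 0.0675 and 0.0913) or 3 (0.0559 and 0.0595). The same held without saline replicate 1 (edgeR adjusted p 0.125 and 0.188), so the loss was not particular to collagenase replicate 1.

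**Figure D4:**
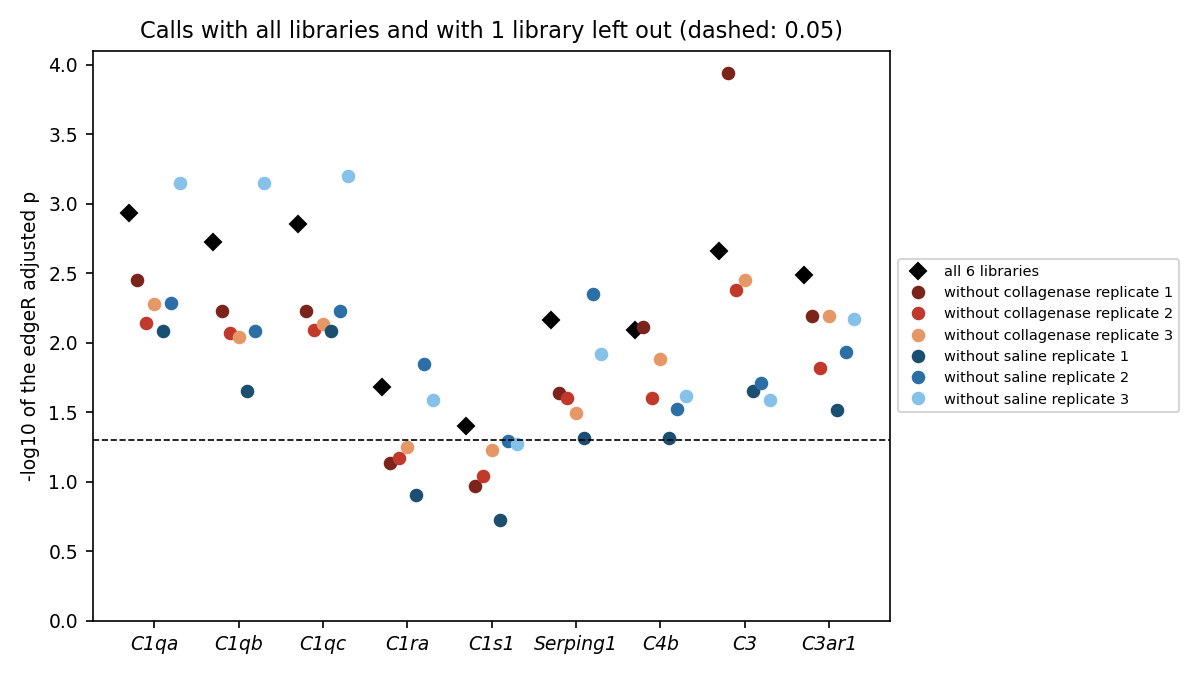
Minus log10 of the edgeR adjusted p of each gene with all 6 libraries (black diamonds) and with 1 library left out (red and orange, a collagenase library; blue, a saline library); the dashed line is 0.05. C1ra and C1s1 fall below the line in 4 and 6 of the 6 fits with a library left out, and the other 7 genes stay above it in all of them.

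The share of all tested genes called higher moved with the setting. It was 0.853%, 0.77% and 1.16% without collagenase replicate 1, 2 or 3, and 0.46%, 1.71% and 2.86% without saline replicate 1, 2 or 3, where 7 or 8 of the 9 genes passed. It was 3.09% with DESeq2, 2.07% with RLE scaling and 1.71% with no filter on low counts, where 9 of 9 passed. It was 3.49% with both choroid-poor libraries left out and 1.46% with the replicate number as a block, where 8 of 9 passed. On the FPKM scale it was 1.98% with a pseudocount of 0.1 (9 of 9), 1.63% with a pseudocount of 1 (8 of 9) and 1.01% without a filter (7 of 9).

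Beyond the 9 genes, 54 other complement genes were listed by role. Of these 53 were in the tables and 37 had enough counts to be tested; 4 rose, among them Itgax, Itgb2 and C6, 0 fell and 33 did not pass in edgeR. The median log2 fold change of the 37 was 0.24, and 13 had an unadjusted p under 0.05, as did 2075 of the 17240 tested genes (12%), while DESeq2 called 10. Mbl1, Mbl2, Fcnb and Cfd were at 0 in every library.

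Both receptor subunits that rose belong to integrins which bind iC3b, a fragment of C3. Itgax (CD11c, the alpha chain of complement receptor 4) measured 15.5, 14.6 and 8.32 CPM in collagenase replicates 1, 2 and 3, against 0.158, 0.349 and 0.293 CPM in saline replicates 1, 2 and 3. Its log2 fold change of 5.60 (SE 0.37, edgeR adjusted p 0.000614) was of the size seen for C3. The saline levels lay near the limit of the filter on low counts, so Itgax entered the test through the collagenase libraries. With no filter its log2 fold change was 5.60 (edgeR adjusted p 6.5e-05). Itgb2 (CD18, the shared beta chain) measured 31.9, 23.3 and 17.8 CPM in collagenase replicates 1, 2 and 3, against 5.45, 5.18 and 7.98 CPM in saline replicates 1, 2 and 3 (1.97, SE 0.25, edgeR adjusted p 0.00829). Without saline replicate 1 the call of Itgb2 ended (edgeR adjusted p 0.0643).

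Itgam (CD11b, the alpha chain of complement receptor 3) did not pass, although its groups did not overlap: it measured 37.5, 28.0 and 23.9 CPM in collagenase replicates 1, 2 and 3, against 12.5, 9.51 and 18.5 CPM in saline replicates 1, 2 and 3 (1.14, SE 0.26, edgeR adjusted p 0.0732). It passed without saline replicate 3 (edgeR adjusted p 0.0149). C5ar1, the main receptor for C5a, measured 2.21, 1.32 and 1.48 CPM in collagenase replicates 1, 2 and 3, against 0.653, 0.233 and 0.411 CPM in saline replicates 1, 2 and 3 and did not pass (1.92, SE 0.42, edgeR adjusted p 0.0616). DESeq2 called both Itgam and C5ar1.

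C2, the partner of C4 in the enzyme that cleaves C3, did not pass. It measured 2.06, 1.99 and 3.16 CPM in collagenase replicates 1, 2 and 3, against 1.42, 2.12 and 0.645 CPM in saline replicates 1, 2 and 3 (0.78, SE 0.42, edgeR adjusted p 0.534), and its groups overlapped. The alternative arm was represented by Cfb, the protease component, with a log2 fold change of 1.14 (SE 0.46, edgeR adjusted p 0.368), and by Cfp (properdin, its stabiliser), with 0.71 (SE 0.15, edgeR adjusted p 0.0556). Neither passed in edgeR, and DESeq2 called Cfp. In the lectin arm 0 of 5 tested genes passed in edgeR, with 1 at an unadjusted p under 0.05, Colec12, which DESeq2 called.

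Clu, a soluble regulator which blocks the terminal complex, had a log2 fold change of 0.50 (SE 0.15, edgeR adjusted p 0.2) and did not pass, though DESeq2 called it. The 13 membrane regulators, among them Cd55, Cd46, Cd59a and the Csmd and Sez6 families, had a median log2 fold change of -0.08, and 0 passed in edgeR, 0 had an unadjusted p under 0.05 and 0 passed in DESeq2. In the terminal pathway C6 alone of 4 tested genes passed. It rested on few reads, 37, 16 and 12 counts in collagenase replicates 1, 2 and 3 against 0, 2 and 0 counts in saline replicates 1, 2 and 3. C6 thus entered the test through the collagenase libraries only. The ratio of the summed counts, scaled to depth, was 29.7 with an exact 95% counting interval of 7.90 to 251, and the call (edgeR adjusted p 0.0421) was kept in 1 of 6 fits with a library left out (range 0.0455 to 0.204).

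**Figure D5:**
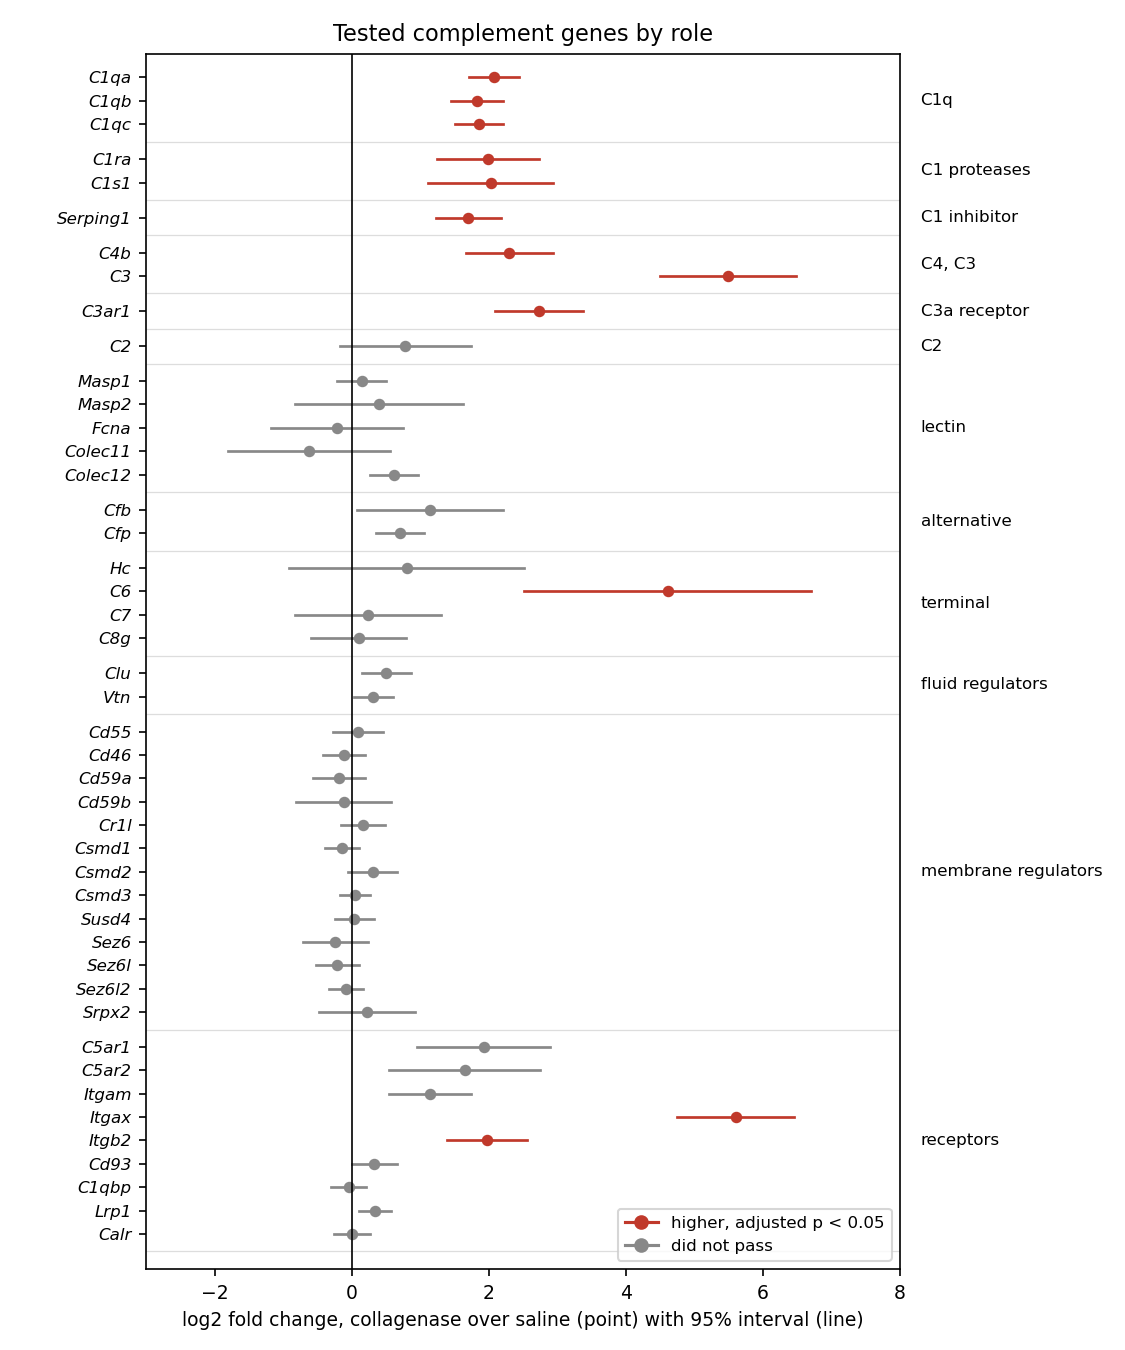
Log2 fold change of collagenase over saline (points) with its 95% interval (lines) for tested complement genes, grouped by role; red genes passed edgeR's test as higher and grey genes did not pass. All 9 classical and C3 genes are red, C3 and Itgax are the highest points, and the membrane regulators lie around 0.

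The genes with the nearest profiles over the 6 libraries were found by root mean square distance of centred log2 CPM among 12918 genes. For C1qa these were Csf3r (0.11), Ptpn6 (0.13), Arl11 (0.14), Tyrobp (0.14) and Trem2 (0.15). For C4b they were Tlr2 (0.12), Ptprc (0.13), H2-Q6 (0.14), Cd300a (0.17) and Cyba (0.18), of which H2-Q6 belongs to a family whose reads may be shared. For C3 they were Lyz2 (0.30), Saa3 (0.50), Itgax (0.53), Gpnmb (0.53) and Lcn2 (0.57). The distance grows with the size of the change: divided by the spread of the gene itself around its mean (root mean square 2.71 for C3, 1.05 for C1qa and 1.19 for C4b), it was 0.11 from C3 to Lyz2, 0.11 from C1qa to Csf3r and 0.10 from C4b to Tlr2. Within the 9 genes C3 was 1.36 from C3ar1 and up to 1.86 from Serping1 before such division.

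The genes beside them in the genome were checked as well. The 12 nearest tested neighbours from outside the 9 had a median log2 fold change of -0.01, and 0 passed in edgeR, with 2 at an unadjusted p under 0.05 and 1 called by DESeq2, Ube2l6 beside Serping1. C1rl, a relative of C1r next to C1ra, had a log2 fold change of 0.66 (SE 0.47, edgeR adjusted p 0.668).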

How the data were processed

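Poly(A) RNA of 6 libraries was sequenced, 3 from collagenase and 3 from saline VPL/VPM. The authors deposited counts per feature and FPKM values, per the file headers, which do not say whether the counts are raw. HISAT2 2.2.1, StringTie, DESeq2, FastQC and GRCm38 are named in the submitters' processing notes; which annotation release and strand setting were used is not given in the sources used here. From the deposited counts, edgeR 4.0.16 in R 4.3.3 (filterByExpr, TMM, robust quasi-likelihood test without a block) was fitted to all 17240 genes kept by the filter, with Benjamini-Hochberg adjustment and a threshold of 0.05. CPM were scaled by the TMM factors. Ratios were tested with two-sided exact permutation tests. The scripts were tested on simulated data.

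Members and gene lists were chosen with earlier results of these data known. The named genes are the 9 members, their copies, each other complement gene that passed plus up to 3 per list with the smallest p, and the 5 nearest profiles of C1qa, C3 and C4b. Alternatives were RLE scaling, DESeq2 1.42.0, no filter, a replicate block, leaving out each library, and limma 3.58.1 on log2(FPKM + 0.1) or log2(FPKM + 1). Leaving out both choroid-poor libraries was chosen after seeing the data. Positions are from GENCODE and promoters from RefSeq, both on GRCm38. A few listed genes are not reported here by name. Intervals on counts cover counting error only.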

Additional observations from a re-analysis of the deposited data

How the results depend on the processing

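Across all settings no log2 fold change of the 9 genes changed sign: with 1 library left out 44 of 54 calls were kept and 10 lost (C1ra 4, C1s1 6), and under the other settings 67 of 72 were kept. The number of the 9 genes passing was 9 with all libraries and 7 to 8 with 1 left out. The 5 other lost calls were C1s1 with the replicate block (edgeR adjusted p 0.102), on log2(FPKM + 1) (limma, 0.0895) and on unfiltered FPKM (0.0989), C1ra on unfiltered FPKM (0.0546), and C3 with both choroid-poor libraries left out (edgeR, 0.0533).

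Over all tested genes 416 passed (366 higher and 50 lower). DESeq2 gave 788 (608 higher and 180 lower), unfiltered FPKM 238, leaving out both choroid-poor libraries 1034 (608 higher and 426 lower), and leaving out 1 library 85 (saline replicate 1) to 917 (saline replicate 3, 503 higher and 414 lower). Among other complement genes 4 passed, 10 with DESeq2, and 1 to 6 with a library left out. FPKM with a pseudocount of 0.1 shifted the median of all genes by 0.10 on the log2 scale.

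Log2 ratios that overlapped between groups changed sign: with 1 library left out C4b to C1qa ran from -0.13 (without saline replicate 3) to 0.44, C1ra to C1s1 from -0.16 (without saline replicate 3; -0.074 without collagenase replicate 3) to 0.23, and C1s1 to Serping1 from -0.032 (without collagenase replicate 1) to 0.48. The causes were not tested.

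Same-numbered libraries deviated together with correlations of 0.04, 0.11 and 0.20, and not every library correlated best with its own number. The numbers were therefore not taken as pairs in the main fit. Both libraries numbered 3 were poor in choroid plexus markers, at 55.2 CPM after collagenase and 57.3 CPM after saline. The labels do not say what a shared number means, so pairing remains possible. With the replicate block 302 genes passed, 8 of them among the 9. With 3 libraries a group the precision is limited. The SE of the log2 fold change was 0.33 for C1ra, 0.40 for C1s1 and 0.92 for C6. C3, with far more counts in the collagenase libraries, had an SE of 0.42. Counting error and spread between libraries were not separated.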

Other observations

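Interferon-stimulated genes went the other way from complement. Of 12 such genes 9 fell after collagenase (Rsad2, Irf7, Ifi44, Oasl2, Usp18, Ifit1, Isg15, Stat2 and Ifit3), 0 rose and 3 did not pass in edgeR, with a median log2 fold change of -1.84. Their summed level was 123 to 192 CPM in collagenase libraries against 299 to 408 CPM in saline libraries.

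Of 6 tested T and NK cell genes 4 passed as higher (Cd3g, Nkg7, Cd3e and Cd8a). All 4 had 0 counts in every saline library and entered the test through the collagenase libraries only, where they had 15 to 152 counts each. The sum over the 8 genes in the tables was 12.1, 4.62 and 4.41 CPM in collagenase replicates 1, 2 and 3, against 0.653, 0.553 and 13.1 CPM in saline replicates 1, 2 and 3. Cd4 made up most of the sum in saline replicate 3, with 446 counts there, and did not pass (edgeR adjusted p 0.751).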
